A study of Saccharomyces cerevisiae with 18 samples.

Results

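The transcripts of 32 genes that build the prospore membrane and the spore wall of Saccharomyces cerevisiae were followed while dormant spores germinated. The genes were taken from a written list by symbol or systematic name, and all 32 of them were among the 5826 genes with a value in every group, out of 6218 genes on the arrays. Spores of the diploid strain Y55 (HO gal3 MAL1 SUC1), purified with zymolyase and sonication after sporulation in potassium acetate, were placed in rich medium (YPD: yeast extract, peptone and 2% glucose) or in 2% glucose alone, and sampled at 0, 4 and 8 min, then at 16, 32, 48 and 64 min, and last at 96 and 128 min. RNA of each sample (Cy5) was hybridised on spotted 2-colour arrays with RNA of dormant spores of the same strain (Cy3), so a log2 ratio of 0 means the level of dormant spores. Each of the 18 groups had 3 arrays, except 0 min in glucose with 2, giving 53 arrays. The methods give the arrays of a group as biological replicates. Dye and sample were never swapped: a dye bias of a probe cancels in a difference from 0 min but not in a level against dormant spores.

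Spore formation encloses each nucleus left by meiosis in a new membrane, the prospore membrane. It starts at the outer plaque of the spindle pole body, its mouth is held by a leading edge coat, and it grows by vesicle fusion before it closes. The wall is then laid down around it from the inside out, with mannan, beta-glucan, chitosan and a dityrosine coat, under kinases of the sporulation program. All of this work is over in a finished spore, and transcripts of these genes in a dormant spore would be those left from its formation. When the transcripts of the dormant spores were made was not measured here.

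Many of these genes were dim in the dormant spore. On the median array 46.9% of the 32 genes had a Cy3 signal above background (background plus 2 SD, range over arrays 12.9 to 96.7%), beside 72.6% of all genes (40.7 to 96.5%). In the Cy5 channel the medians were 78.1% and 88.6%. SPS22 was above background in dormant spores on all 52 arrays with a value, SPS100 on all 36, CRR1 on 50 of 51, SPS4 on 50 of 52 and DON1 on 47 of 51. At the other end were SPR28 with 3 of 53 arrays, CDA1 with 4 of 48, CDA2 with 6 of 53, GAS4 with 8 of 52 and SPS2 with 10 of 53. A log2 ratio near 0 for such a gene compares a pair of signals that are both mostly at background. It does not show that a transcript stayed. The baseline in YPD was dim as well: for 8 of the 32 genes (SPO75, SPO20, SPR28, SPS2, CDA1, CDA2, SHC1 and SPR6) neither channel was above background on any of the 3 arrays at 0 min. For those genes the size of a change from 0 min in YPD is not a measured one.

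**Figure D1:**
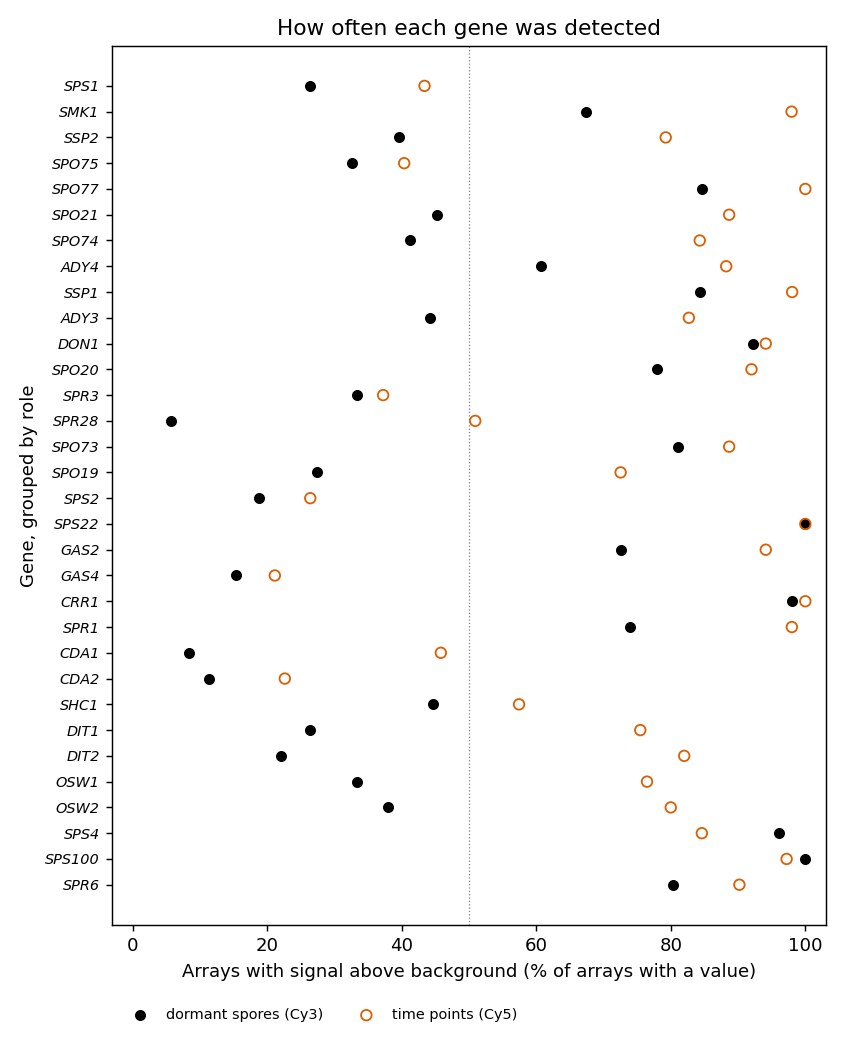
Share of arrays (x axis, % of arrays with a value) on which each of the 32 genes (y axis, grouped by role) was above background, in dormant spores (filled points, Cy3) and in the time points (open points, Cy5). SPS22 and SPS100 sat at 100% in dormant spores and SPR28 at 5.66%.

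The calls split along this line. In 14 genes the dormant-spore signal was above background on more than 50% of the arrays with a value. Of these, 8 were lower at 32 min in YPD than at 0 min and 1 was higher, with a median log2 change of -0.70. The same rule kept 4442 of all genes tested, of which 31.4% were lower and 20.3% higher (median -0.15). Of the 18 dimmer genes 4 were lower and 5 higher (median 0.01), beside 11% lower and 28.4% higher of the 1384 dimmer genes of the array. The rule was set after the values were seen and reads the same Cy3 signals as the ratios, so the split is a description.

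Over the 32 genes, 9 were lower and 6 higher at 16 min in YPD than at 0 min (limma, adjusted p under 0.05). Over all genes tested, 25.9% were lower and 22.7% higher. At 32 min in YPD 12 were lower and 6 higher, against 26.6% and 22.2% of all genes, and the median log2 change was -0.16 over the 32 genes and -0.04 over all genes. By 128 min 11 were lower and 1 was higher, against 25.7% and 18.4%. In glucose 5 were lower at 16 min (6.81% of all genes), and at 32 min 6 were lower and 1 was higher (9.05% and 8.07% of all genes). At 128 min in glucose 7 were lower, against 14.2% of all genes. As shares of the 32 genes the lower calls made up 37.5% at 32 min and 34.4% at 128 min in YPD and 18.8% and 21.9% in glucose, and the higher calls 18.8% at 32 min and 3.12% at 128 min in YPD. The genes did not all move one way, and in YPD at 32 min 14 of them passed in neither direction. The counts in YPD also depend on the baseline. At 0 min in YPD 5 of the 32 genes were already higher than in dormant spores and 1 was lower (531 and 394 of all 5826 genes). Against dormant spores 10 were lower and 9 higher at 32 min in YPD (1826 and 1776 of all genes). The median over the 32 genes was then 0.03.

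Without replicate 2 of the YPD groups the 12 lower genes at 32 min became 6 and the 11 at 128 min became 5, and SPS100 could then not be tested, since its value at 128 min in YPD comes from that array alone. Without replicate 2 of glucose none of the 6 lower genes at 32 min passed. In that fit the 0 min group kept 1 array, which has no value for SPS100 or SPS4. In YPD only the 8 min arrays were quantified on a day that also holds 0 min arrays. At 4 min and from 16 min on, time and day cannot be told apart in YPD. With the day as a random block 3 rather than 6 genes were higher at 32 min. In glucose the arrays have 2 layouts, and 9 arrays of the second layout, 1 for each time, share a day. Between the single arrays of that layout at 32 and 0 min the log2 difference was -0.94 for SPO20, -0.87 for SPS22 and -0.58 for SPO75, values of 1 array against 1.

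The gene with by far the largest change was SPS100, which encodes a protein of the maturing spore wall. In YPD its log2 ratio over dormant spores was 0.47, 0.36 and 0.50 at 0 min, 0.39 and 0.39 at 4 min and 0.00, -0.12 and 0.25 at 8 min. It then stood at -2.28 and -3.09 at 16 min, -4.09 and -4.05 at 32 min, -5.11 and -4.21 at 48 min and -6.41 and -6.20 at 64 min. It stayed low at 96 min (-5.75, -4.87 and -6.80) and on the single array at 128 min (-6.20). The transcript was near its dormant-spore level until 8 min, and no array from 16 min on overlapped an earlier one. Against 0 min the log2 change was -3.13 (SE 0.35, adjusted p = 6.4e-08) at 16 min, -4.52 (SE 0.35, adjusted p = 7.9e-11) at 32 min, which is 22.9-fold, and -6.65 (SE 0.45, adjusted p = 3.4e-12) at 128 min, by limma.

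In glucose SPS100 took a slower course. The single array at 0 min with a value read 0.46, those at 4 min 0.53 and 0.66 and those at 8 min -0.01 and 0.08. From there the ratios were -0.69, -1.07 and -1.35 at 16 min. A single array each gave -1.77 for 32 min and -2.71 for 48 min. At 64 min they were -3.48 and -3.56, at 96 min -3.37 on 1 array, and at 128 min -4.72, -4.75 and -4.10. All glucose arrays from 16 min on lay above all YPD arrays of the same time. The log2 change from 0 min was -2.23 (SE 0.55, adjusted p = 0.0056) at 32 min and -4.99 (SE 0.45, adjusted p = 9.5e-09, limma) at 128 min. The 32 min value sets 1 array against 1, with the spread taken from the other groups. The change at 128 min was the most negative of all 5826 genes. In YPD the change at 64 min was likewise the most negative of all genes, and that at 32 min ranked 10.

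SPS100 had values on 36 of the 53 arrays, since its spots were flagged poor or marked by hand on the others. Its difference between media was -2.30 (SE 0.48, adjusted p = 0.00096) at 32 min, lower in YPD, and -1.68 (SE 0.45, adjusted p = 0.016) at 128 min. Its change from 0 to 32 min differed between the media by -2.28 (SE 0.65, adjusted p = 0.0425), and it was the only one of the 32 genes to pass that test of the difference in change, which 3.54% of all genes passed in this direction. The test rests on 2 and 3 YPD arrays and on 1 glucose array at each time. With all spots kept whatever their flag the value was -1.92 (adjusted p = 0.0068), and with median centring in place of loess -1.06 (adjusted p = 0.271), both by limma.

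**Figure D2:**
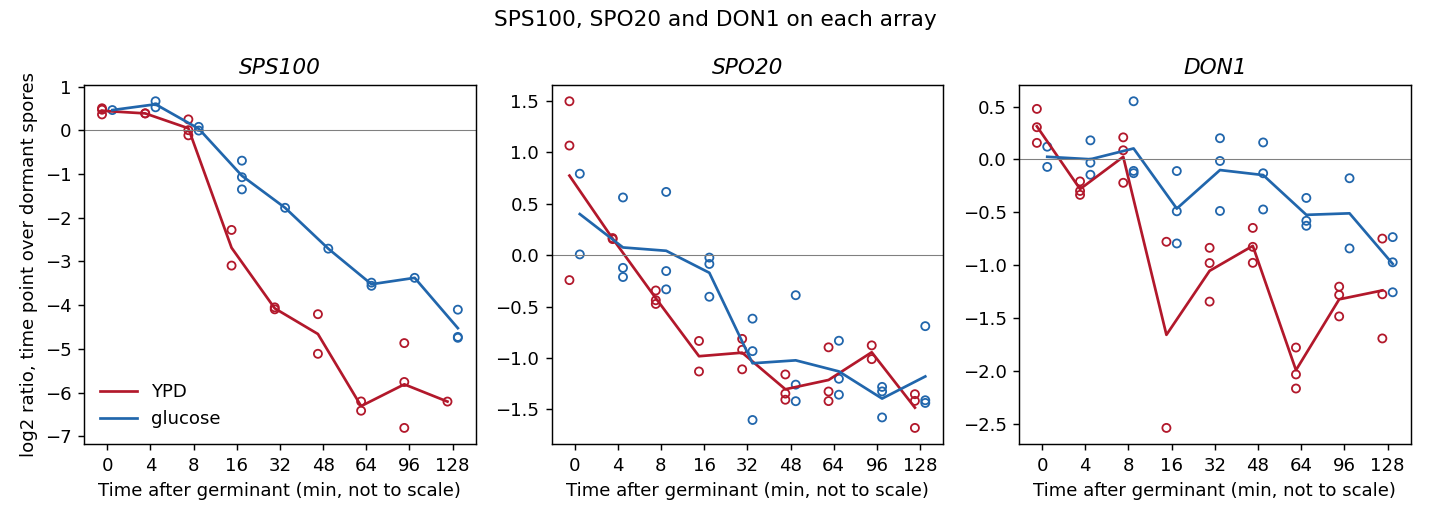
Log2 ratio over dormant spores (y axis, separate scales) of SPS100, SPO20 and DON1 on each array (open points) by time (x axis, min, not to scale) in YPD and in glucose; lines join group means. SPS100 went from 0.44 to -4.07 between 0 and 32 min in YPD and to -1.77 in glucose.

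SPS4 and SPR6, a pair of genes named for their expression in sporulation and without a settled role, were also lower. SPS4 was below its dormant-spore level at 0 min in YPD (-1.08, -0.52 and -0.81) and lower again at 4 min (-1.48, -1.94 and -1.62), which do not overlap. SPS4 was not above background in Cy5 on those 4 min arrays. The ratio there is only a bound, at least 2.55-fold below dormant spores. At 8 min it read -0.81, -0.83 and -0.60. At 32 min the ratios were -1.48, -1.16 and -1.88, all below the 0 min arrays, a change of -0.71 (SE 0.30, adjusted p = 0.047, limma). That change passed in 11 of 19 alternatives, with values from -1.51 to -0.52. In glucose SPS4 read -0.01 on the only 0 min array with a value and -1.29, -1.34 and -1.61 at 32 min (change -1.40, SE 0.42, adjusted p = 0.017), so the fall there is measured from 1 array. Over the alternatives the SPS4 change in glucose ranged from -1.61 to -0.09. The value nearest 0 came from the mean log2 ratios deposited by the authors, -0.70 at 0 min and -0.78 at 32 min. SPR6 changed by -0.87 in YPD (SE 0.21) and -0.86 in glucose (SE 0.23) at 32 min, with adjusted p = 0.00071 and 0.0086 (limma). Its YPD arrays at 0 min were not above background in either channel, while all 3 at 32 min were in both, and against dormant spores the 32 min value was -0.89 (adjusted p = 2.13e-06).

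Membrane fusion and septin genes moved in both directions. SPO20 encodes the sporulation-specific SNARE through which vesicles fuse into the prospore membrane. In YPD its log2 ratios were -0.24, 1.07 and 1.50 at 0 min and -0.92, -1.11 and -0.81 at 32 min, and the groups did not overlap although the 0 min arrays spread widely. None of those 0 min arrays was above background in either channel, while all 3 at 32 min were in both. The fitted change was -1.72 (SE 0.31, adjusted p = 1.2e-05) at 32 min and -2.26 (SE 0.31, adjusted p = 1.1e-07) at 128 min, when the arrays read -1.35, -1.68 and -1.42. In glucose the 0 min arrays read 0.01 and 0.79 and those at 32 min -1.60, -0.62 and -0.93, again apart, with a change of -1.45 (SE 0.34, adjusted p = 0.0026, limma). Against dormant spores the 32 min value was -0.95 in YPD (adjusted p = 2.35e-04). The media differed by 0.10 at 32 min (SE 0.31), a difference that did not pass the test (adjusted p = 0.85).

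SPR3, a sporulation septin, changed by -1.01 in YPD at 32 min (SE 0.29, adjusted p = 0.0038). In glucose the difference was -0.60 and did not pass (SE 0.33, adjusted p = 0.22). Its Cy5 signal was above background on 19 of 51 arrays, and at 0 min in YPD on 1 of 3. The other sporulation septin, SPR28, went the opposite way: -0.06, 0.13 and -0.23 at 0 min in YPD and 0.38, 1.85 and 0.56 at 32 min, without overlap and with 1 array far above its partners (change 0.98, SE 0.40, adjusted p = 0.038). Its dormant-spore signal was above background on 3 of 53 arrays, and its Cy5 signal on 0 of 3 at 0 min and on 3 of 3 at 32 min. The SPR28 change passed in 12 of 20 alternatives, with values from 0.30 to 1.25. SPO19, a GPI-anchored prospore membrane protein, read -0.27, 0.33 and -0.21 at 0 min and 1.06, 0.94 and 0.28 at 32 min in YPD, where the lowest 32 min array lay below the highest 0 min array (change 0.81, SE 0.31, adjusted p = 0.028). SPO19 was above background in Cy3 on 0 of 3 of these 32 min arrays and on 14 of 51 over all, so that size is not exact. At 32 min in glucose it read 0.03, 0.32 and -0.67, and the media differed by 0.86 (SE 0.31, adjusted p = 0.038). That difference passed in 4 of 17 alternatives, with values from 0.27 to 1.13. For SPO73, needed for the membrane to extend, the differences at 32 min were -0.21 in YPD and 0.24 in glucose, and neither passed.

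At the meiotic plaque and the leading edge the 3 coat genes were lower at 32 min in YPD and 2 of the 3 plaque genes were higher. Of all genes tested, 26.6% were lower and 22.2% higher there. DON1, a leading edge protein, had log2 ratios of 0.16, 0.48 and 0.30 at 0 min in YPD and of -0.83, -0.98 and -1.34 at 32 min. In glucose they were 0.12 and -0.07 at 0 min and 0.20, -0.01 and -0.49 at 32 min. The YPD groups did not overlap and the glucose groups did: the change was -1.36 in YPD (SE 0.27, adjusted p = 6.8e-05), and the difference of -0.13 in glucose (SE 0.31, adjusted p = 0.82) did not pass. Between the media at 32 min DON1 differed by -0.95 (SE 0.27, adjusted p = 0.01), while the difference in change, -1.24 (SE 0.41), did not pass (adjusted p = 0.076). By 128 min DON1 was lower in glucose too, at -0.73, -1.25 and -0.97 (change -1.01, SE 0.31, adjusted p = 0.013, limma).

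ADY3, which places Don1 at the leading edge, stood at 1.08, 1.71 and 1.72 at 0 min in YPD and at -0.04, -0.10 and -0.01 at 4 min. At 8 min it was high again, with a mean of 0.74 (0.38 to 1.39), and at 16 min the mean was -0.10. The YPD arrays at 4 and 16 min shared a quantification day that held none of those at 0 and 8 min. By 32 min it read -0.35, -0.11 and -0.12, a change of -1.70 (SE 0.34, adjusted p = 6e-05). Taken against the dormant spores the 32 min value was -0.20, which did not pass (adjusted p = 0.495), and the 0 min arrays themselves lay above the dormant spores, whose signal was above background on none of those 3 arrays. SSP1, a main protein of the coat, read 0.73, 0.98 and 0.80 at 0 min, 1.0, 1.49 and 2.46 at 8 min and 0.19, 0.03 and -0.10 at 32 min (change -0.80, SE 0.34, adjusted p = 0.047). Its means at 4 and 16 min were lower than at 0 and 8 min, at 0.30 and 0.33. At 8 min its dormant-spore signal was above background on 1 of 3 arrays. Against dormant spores its 32 min mean was 0.04, of the opposite sign, and that value did not pass (adjusted p = 0.896, limma).

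Of the plaque genes, ADY4 rose early in YPD. Its log2 ratios were -0.37, -0.37 and -0.22 at 0 min, 2.19, 1.03 and 0.72 at 8 min, 1.70, 0.55 and 1.01 at 16 min and 0.36, 0.68 and 0.43 at 32 min. At each of these later times all arrays lay above those at 0 min. On the 3 arrays at 0 min the Cy5 signal was not above background, so the ratio there is only a bound and the sizes that follow are not exact. At 8 and at 16 min the Cy3 signal was above background on 1 of 3 arrays. The fitted changes were 1.41 at 16 min (SE 0.26, adjusted p = 2.7e-05) and 0.81 at 32 min (SE 0.26, adjusted p = 0.01), and against dormant spores the 32 min value was 0.49 (adjusted p = 0.0223). SPO74 read -0.02, 0.17 and 0.03 at 0 min and 0.57, 0.93 and 0.87 at 32 min in YPD, and -0.06 and -0.02 at 0 min and 0.05, 0.33 and 0.09 at 32 min in glucose. Every YPD array lay above every glucose array at 32 min, a difference of 0.63 (SE 0.20, adjusted p = 0.019) that passed in 12 of 19 alternatives. For SPO21, the third plaque protein, the differences at 32 min were -0.18 and -0.04, and neither passed.

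**Figure D3:**
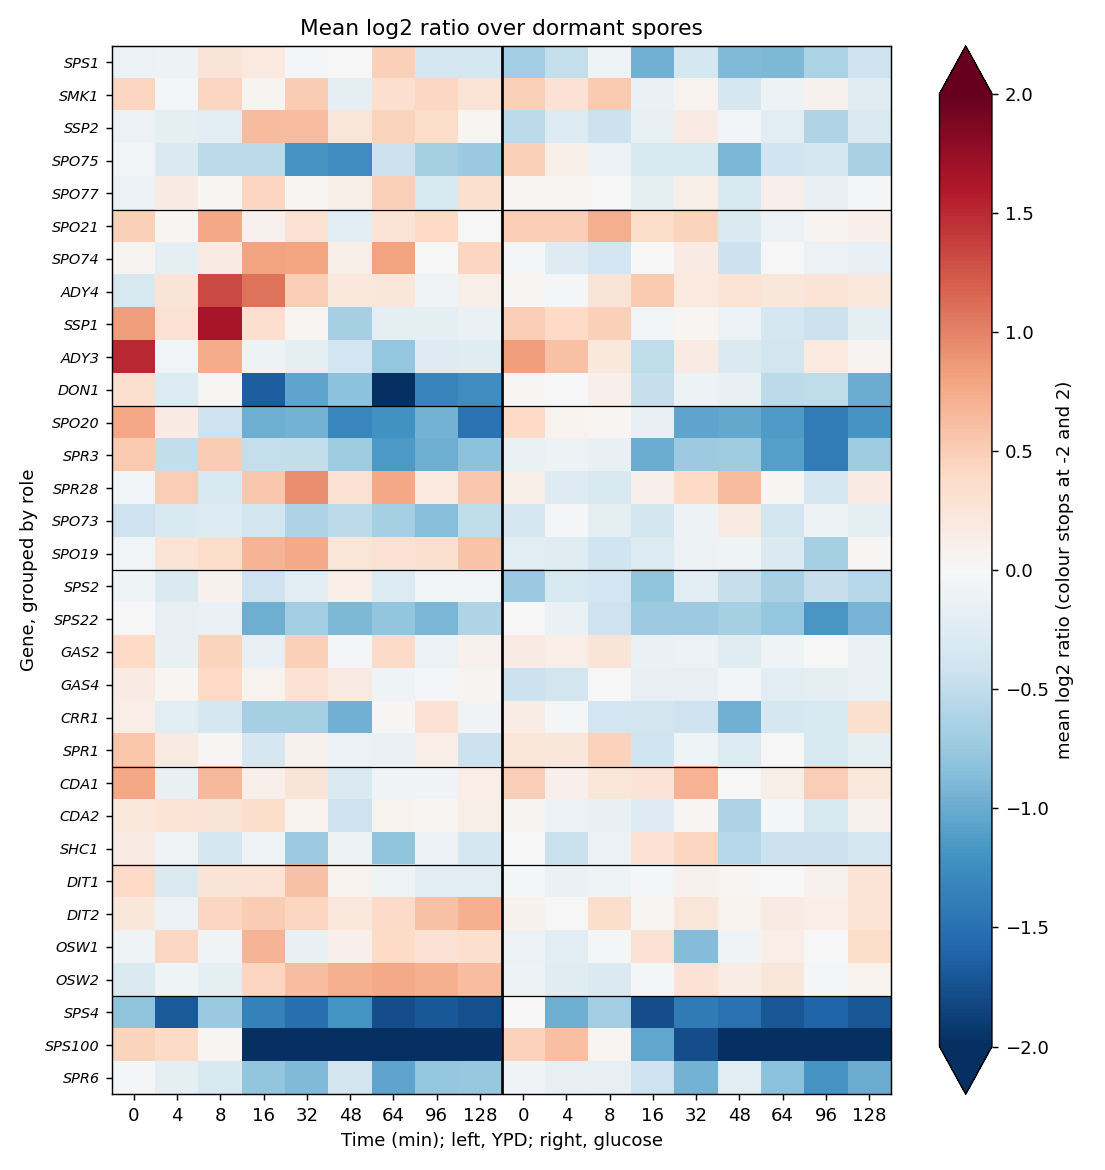
Mean log2 ratio over dormant spores (colour scale from -2 to 2) of the 32 genes (rows, grouped by role) at 9 times in YPD (left) and glucose (right). SPS100 goes beyond the colour range from 16 min on in YPD, and 3 high group means stand out, all in YPD: SSP1 at 8 min (1.65), ADY3 at 0 min (1.50) and ADY4 at 8 min (1.31). In these groups the dormant-spore signal was above background on 1, 0 and 1 of 3 arrays, so those sizes are not exact.

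Among the kinases and their activators, the genes of the kinases themselves did not pass at 32 min. The log2 difference from 0 min was 0.08 in YPD and -0.41 in glucose for SMK1, the MAP kinase of wall assembly, and 0.08 and 0.35 for SPS1, a Ste20-type kinase. SPS1 was above background in dormant spores on 14 of 53 arrays and SMK1 on 33 of 49. SSP2, which activates Smk1, read 0.08, -0.18 and -0.24 at 0 min and 0.73, 0.54 and 0.57 at 32 min in YPD, with no overlap, and the change of 0.72 (SE 0.22) passed (adjusted p = 0.0062). SSP2 was above background in Cy3 on 0 of 3 of these 32 min arrays and on 21 of 53 over all, so that size is not exact. In glucose its change was also 0.72 (SE 0.25, adjusted p = 0.039, limma), from -0.80 and -0.29 to 0.57, 0.34 and -0.40, where the lowest 32 min array overlapped the 0 min arrays. The glucose change passed in 10 of 21 alternatives, with values from 0.17 to 1.0 and a largest adjusted p of 0.677.

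SPO75, required for proper wall formation, was lower in both media. Its log2 ratios in YPD were -0.05, 0.07 and -0.18 at 0 min and -1.46, -1.41 and -0.69 at 32 min. In glucose they were 0.16 and 0.78 at 0 min and -0.28, -0.27 and -0.42 at 32 min. Neither medium showed overlap, and the fitted changes were -1.13 (SE 0.22, adjusted p = 3.6e-05) and -0.79 (SE 0.24, adjusted p = 0.02). The gene was dim: no YPD array at 0 min was above background in either channel, and over all arrays 17 of 52 were in Cy3 and 21 of 52 in Cy5. Against dormant spores the 32 min values were -1.19 in YPD (adjusted p = 1.09e-08) and -0.32 in glucose, and the latter did not pass (adjusted p = 0.0863). The media differed by -0.86 at 32 min (SE 0.22, adjusted p = 0.0033) and by -0.09 at 128 min (SE 0.22, adjusted p = 0.87). SPO77, which acts with the Sps1 kinase, was above background in Cy5 on 52 of 52 arrays, and its differences of 0.15 and 0.08 at 32 min did not pass (adjusted p = 0.7 and 0.88, limma).

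Of the 6 genes of the glucan layer, 2 were lower at 32 min in YPD and 1 in glucose, beside 26.6% and 9.05% of all genes. SPS22, a GPI-anchored protein needed for the glucan layer, changed by -0.69 in YPD (SE 0.23, adjusted p = 0.01) and by -0.74 in glucose (SE 0.25, adjusted p = 0.037), from a signal above background on every array with a value. In glucose SPS22 passed in 11 of 21 alternatives, with values from -0.93 to -0.51. Its close relative SPS2, above background in dormant spores on 10 of 53 arrays, had differences of -0.13 and 0.53, and neither passed. CRR1, a putative glycosidase of the spore wall, read 0.19, 0.08 and 0.15 at 0 min and -0.33, -0.84 and -0.83 at 32 min in YPD, apart from each other (change -0.81, SE 0.23, adjusted p = 0.0037). At 128 min it read 0.22 and -0.36 on 2 arrays (difference from 0 min -0.21, SE 0.26, adjusted p = 0.55); between 32 and 128 min the difference of 0.60 (SE 0.26) did not pass (adjusted p = 0.081, limma).

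SPR1, the sporulation-specific exo-glucanase, had a difference of -0.48 at 32 min that did not pass (SE 0.24, adjusted p = 0.093) and changed by -0.99 by 128 min in YPD (SE 0.24, adjusted p = 0.00084). The glucanosyltransferase genes GAS2 and GAS4 did not pass at 32 or 128 min in either medium. GAS4 read 0.18, 0.46 and -0.15 at 0 min and 0.38, 0.28 and 0.22 at 32 min in YPD, overlapping groups from a spot that was above background in dormant spores on 8 of 52 arrays. SPS2 and SPS22, and GAS2 and GAS4, are related in sequence, and spotted double-stranded probes can catch transcripts of a relative or of the opposite strand.

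In the chitosan layer CDA1 and CDA2, the chitin deacetylase genes, had differences of -0.51 and -0.15 at 32 min in YPD, and neither passed. CDA2 read 0.31, 0.09 and 0.23 at 0 min and 0.27, -0.03 and -0.05 at 32 min, with overlap. SHC1, an activator of the chitin synthase that makes the precursor, read 0.20, 0.11 and 0.18 at 0 min in YPD and -0.72 on the only 32 min array with a value (change -0.89, SE 0.38, adjusted p = 0.049). In glucose it read -0.12 and 0.13 at 0 min and -0.05 and 0.91 at 32 min, and the media differed by -1.15 (SE 0.40, adjusted p = 0.033). Both SHC1 calls rest on that 1 YPD array, and the 0 min arrays in YPD were not above background in either channel. The SHC1 difference between media passed in 5 of 16 alternatives, and the SHC1 difference at 128 min did not pass (-0.52, SE 0.27, adjusted p = 0.11, limma).

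None of the 4 genes of the dityrosine layer and the outer wall was lower at 32 min. Of all genes tested, 26.6% were lower in YPD and 9.05% in glucose. These genes were dim in dormant spores. Cy3 was above background on 14 of 53 arrays (DIT1), 11 of 50 (DIT2), 17 of 51 (OSW1) and 19 of 50 (OSW2). At 32 min in YPD that was 0 of 3 for each gene. A fall could hardly be seen from such signals, and the sizes of the YPD changes below are not exact. DIT1 and DIT2, neighbouring genes whose enzymes make the dityrosine precursor, had differences of 0.18 and 0.20 in YPD and of 0.11 and 0.15 in glucose, none of which passed. DIT1 was then lower at 128 than at 32 min in YPD, by -0.79 (SE 0.29, adjusted p = 0.041), with arrays at 0.68, 0.66 and 0.40 at 32 min and at -0.16, -0.38 and -0.09 at 128 min. With SPS100 it made up the 2 genes that were lower at 128 than at 32 min, a class that held 14.2% of all genes. OSW2, an outer spore wall gene, read -0.32, -0.31 and -0.26 at 0 min in YPD and rose to 0.60, 0.76 and 0.50 at 32 min (change 0.92, SE 0.22, adjusted p = 0.00076) and 0.75, 0.17 and 0.93 at 128 min (change 0.91, SE 0.22, adjusted p = 0.00093). It was the 1 gene of the 32 still higher at 128 min. In glucose the OSW2 difference at 32 min was 0.39 and did not pass (SE 0.25, adjusted p = 0.3). OSW1 read -0.13, -0.03 and -0.12 at 0 min and -0.32, -0.42 and 0.28 at 32 min in YPD, with overlap.

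**Figure D4:**
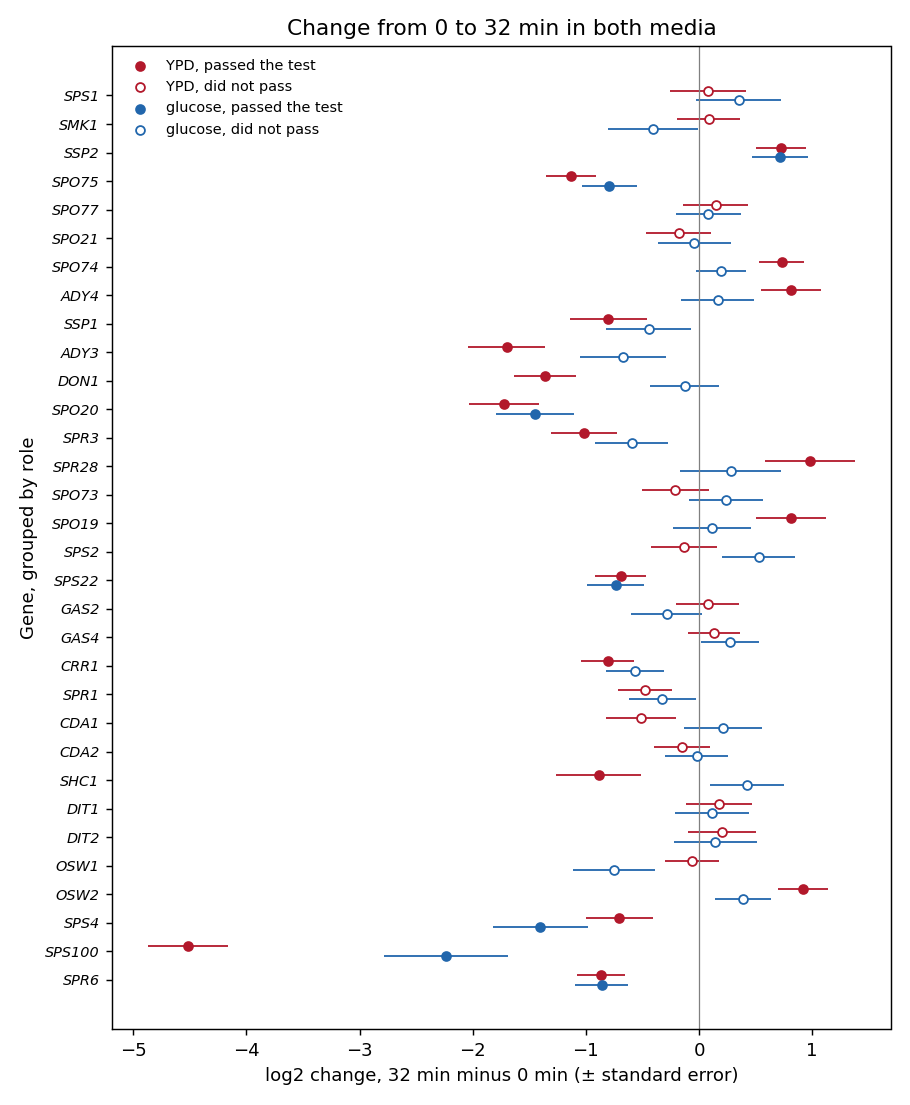
Log2 change from 0 to 32 min (x axis, with standard error bars) of each of the 32 genes (y axis, grouped by role) in YPD and in glucose; filled points passed the limma test at an adjusted p under 0.05 and open points did not. SPS100 lay farthest to the left in both media, at -4.52 and -2.23.

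Set side by side at 32 min, 4 of the 32 genes were lower in YPD than in glucose (SPS100, SHC1, DON1 and SPO75) and 2 were higher (SPO74 and SPO19). The SHC1 and SPO19 calls passed in fewer than 50% of the alternatives tested, as given above. Over all genes 13.9% were lower and 9.47% higher. At 32 min no YPD array shared a quantification day with a glucose array, so medium and day cannot be told apart there. With the day as a random block 2 genes were lower and none was higher. At 128 min only SPS100 was lower, against 6.57% of all genes. These comparisons between media share no arrays with each other, but each shares its arrays with the changes from 0 min above.

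Of 13 vegetative relatives of these genes that could be tested, 4 were higher and 2 lower at 32 min in YPD, beside 22.2% and 26.6% of all genes. SKT5, the growth counterpart of SHC1, changed by 1.75 in YPD at 32 min (adjusted p = 6.4e-06) and by 1.04 in glucose (adjusted p = 0.013). GAS3 and GAS5, of the glucanosyltransferase family, changed by 1.91 (adjusted p = 8.9e-08) and 1.0 (adjusted p = 0.00092) in YPD. SEC9, the SNARE of growing cells related to SPO20, changed by 0.72 in glucose (adjusted p = 0.026), and its difference of 0.43 in YPD did not pass (adjusted p = 0.08, limma). Of the exo-glucanase genes EXG1 had a difference of 0.32 that did not pass, and EXG2 fell by 1.20 (adjusted p = 3.1e-05). CRH1 and UTR2, the relatives of CRR1, had differences of -0.44 and 0.50 that did not pass (adjusted p = 0.41 and 0.082). Of the 5 mitotic septins CDC11 was lower (-0.95, adjusted p = 0.034) and SHS1 higher (0.77, adjusted p = 0.0065), while CDC3, CDC10 and CDC12, at 0.03, 0.12 and 0.48, did not pass.

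Outside the 32 genes, 18 further wall and membrane genes were tested as a written list. At 32 min in YPD 3 were lower and 3 higher, with a median of 0.00, beside 26.6% lower and 22.2% higher of all genes. The lower ones were PFS1 (-1.50, adjusted p = 1.5e-05), RRT8 (-1.29, adjusted p = 0.0001) and SMA2 (-0.91, adjusted p = 0.0036), and the higher ones OSW5 (1.45, adjusted p = 6.8e-06), LDS2 (1.20, adjusted p = 0.00035) and DTR1, the dityrosine transporter (0.43, adjusted p = 0.023). Among 12 regulators of sporulation 5 were lower and 2 higher at 32 min in YPD, beside the same shares of all genes. IME2, a kinase of early meiosis, changed by -1.25 (adjusted p = 2.7e-06), and NDT80, the activator of the middle sporulation genes to which many of the 32 belong, by 1.85 (adjusted p = 3.7e-06). At 128 min the NDT80 difference was -0.16, which did not pass (adjusted p = 0.72, limma). The labels were checked with genes of dormancy and mating. SIP18 changed by -6.54 and GRE1 by -5.88 from 0 to 128 min in YPD, and MFA1 and MFA2 by 3.53 and 3.97.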

How the data were processed

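The 53 arrays carry 13056 spots in 48 blocks. The deposited scanner files give, by their headers, spot intensities that the authors read out in ImaGene 6.0.1 for either dye, local background not subtracted. They also deposited a table of log2 ratios, 1 mean per gene and group after loess, which served as an alternative. Intensities were corrected with limma's normexp (offset 50) and the log2 ratio of both dyes (Cy5 to Cy3) was normalized within arrays by loess. Spots with a poor or manual flag were dropped and the 2 spots of each of the 32 genes averaged. The 11 arrays of the second layout, in which 370 spots hold another gene, were read with their own identifiers. Genes without a value in some group (392) were not tested. Every group entered a single fit with limma 3.58.1 (lmFit, eBayes, two-sided, Benjamini-Hochberg over 5826 genes within a comparison, threshold 0.05) in R 4.3.3. Of 200 genes given known changes in simulated data for 32 against 0 min in YPD, 58% of those changed 2-fold and 99% of those changed 4-fold were found.

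Precision depends on how many arrays each group has and on how far spots stood above their background; this ratio was 1.39 to 2.51 for the median spot in Cy3 and 1.66 to 3.77 in Cy5. Between 8.49 and 24.4% of spots per array were flagged. All 32 genes are accounted for. Values on each array are given for those that changed most in either direction within each role and those that differed between media. The alternatives were other background corrections, normalizations, flags and filters, arrays left out, other baselines and blocks. The genes and the lists were chosen with earlier results of these data known. Motif searches and protein comparisons were not run, and no sequence is printed.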

Additional observations from a re-analysis of the deposited data

Results flagged for a closer look

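The change of SPS100 from 0 to 32 min differed between the media: the difference, YPD less glucose, was -2.28 on the log2 scale (adjusted p = 0.0425, limma test of the difference in change). Over the 15 alternatives that gave a value it ranged from -2.42 to -1.06. It passed in 8 of the 14 with a test, and the largest adjusted p was 0.271. At each of 0 and 32 min it rests on 1 glucose array.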

How the results depend on the processing

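Of 300 counts recomputed, 210 stayed within 1.5 times the reported count. Leaving out 1 replicate of a medium gave 1 to 6 genes higher at 16 min, 6 to 11 lower and 3 to 6 higher at 32 min, and 5 to 11 lower and 1 to 2 higher at 128 min in YPD. In glucose it gave 0 to 4 lower at 16 min, 0 to 5 lower and 0 to 1 higher at 32 min and 1 to 7 lower at 128 min. Between media it gave 2 to 3 lower and 0 to 2 higher at 32 min, 0 to 1 lower at 128 min, 0 to 1 for the difference in change, and 0 to 3 lower at 128 than at 32 min. Without background subtraction 6 were lower at 128 min in YPD. In glucose 2 were lower at 16 min, 2 at 32 min and 3 at 128 min, and there was 1 lower at 128 than at 32 min in YPD, with 0 higher at 32 min in glucose, lower in YPD at 128 min or different in change. With plain subtraction 2 differed in change and 1 was lower at 128 than at 32 min. Median centring gave 3 higher at 128 min in YPD, 3 lower at 16 min in glucose, and 0 higher at 32 min in glucose, higher in YPD at 32 min or different in change. Loess within print blocks gave 2 higher at 128 min in YPD, 2 lower and 0 higher in YPD than in glucose, 2 different in change and 4 lower at 128 than at 32 min. Spot medians gave 0 higher at 128 min in YPD, 3 lower at 16 min in glucose, 1 higher in YPD than in glucose, 0 different in change and 1 lower at 128 than at 32 min. The dormant-spore baseline gave 4 higher at 128 min in YPD and turned SSP1 at 32 min in YPD to 0.04. With only the groups compared, 3 were higher at 128 min in YPD, 3 lower at 16 min and 0 lower and 0 higher at 32 min in glucose, 2 lower and 0 higher in YPD than in glucose, 2 different in change and 5 lower at 128 than at 32 min. The day as a random block gave 3 higher at 16 min and 3 at 32 min in YPD, 0 higher at 32 min in glucose, 2 lower and 0 higher in YPD than in glucose, 0 different in change and 1 lower at 128 than at 32 min. The layout as a block gave 1 higher in YPD than in glucose. Arrays of layout 1 alone gave 2 higher at 128 min in YPD, 1 higher in YPD than in glucose, and 0 lower in YPD at 128 min or different in change. Arrays of layout 2 alone, added after seeing the data and testing 22 of the 32 genes, gave 0 lower at 16 min, 0 lower and 0 higher at 32 min and 1 lower at 128 min in glucose, with 1 array at 0 min and from 16 min on and the spread taken from the groups at 4 and 8 min, and the day shared by the media at 128 min, also added then, gave 0 lower in YPD. The replicate number does not pair arrays throughout: same-numbered arrays deviate together in some pairs and not in others, with correlations from -0.34 to 0.71. The median was 0.28 for replicate 3 of glucose and at most 0.10 for the other sets. As a replicate block the replicate number gave 2 higher at 128 min in YPD and 0 different in change, and moved no other count by over 1.5 times. The number in the scan folders, added later, moved none of the counts by that much. Dim signal limits the genes near background most. The causes of these shifts were not tested.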
